A study of Mus musculus with 16 samples.

Results

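Of the 13113 ATRX-dependent heterochromatin nanodomains (HNDs) in the list, 458 (3.49%) lay at the centromeric ends of the 19 autosomes. They were chosen by position alone, as HNDs on chromosomes 1 to 19 that start before 8 Mb on mm9. The assembly gives the centromeric end of each of these chromosomes as 3 Mb of unknown bases, so that the members cover the first 5 Mb of known sequence, and 0 of them started before the first known base. They were compared with the 8155 HNDs of the chromosome interior, more than 20 Mb from both ends of the same chromosomes.

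The HNDs come from ChIP-seq of H3K9me3 in mouse embryonic stem cells, in which DNA bound by an antibody to the histone mark is sequenced. The wild-type (WT) line wt26 was compared with *Atrx* knock out (KO) cells, for which the lines KO1-40 and KO1-45 are given, each 1 clone, and the labels do not say which library came from which. H3K9me3, H3 and IgG precipitations and the input had 2 WT and 2 KO libraries each, 16 in all, from cells grown on gelatine with serum and LIF. The HNDs are the H3K9me3 peaks that were present in WT and absent in KO, deposited as 1 list without height, score or value per library. Values therefore carry no error between libraries, and every SD and p-value below is over chromosomes.

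ATRX is a chromatin remodeler that, together with the chaperone DAXX, deposits the histone variant H3.3 at telomeres, pericentric repeats and silenced retrotransposons. H3K9me3 is the histone mark of constitutive heterochromatin and is bound by HP1. Mouse autosomes are telocentric, with the centromere and its satellite repeats close to an end, and the satellite arrays are largely missing from the assembled sequence.

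The 3 HNDs nearest to the first known base, each on a different chromosome, show how different the sequences at this border are. The capitals mark the 24-base word of each HND that has the most copies in mm9 among the words counted. Words made of short tandem units were left out of the copy counts here and below.

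chr4:3000106-3000282 (plus strand): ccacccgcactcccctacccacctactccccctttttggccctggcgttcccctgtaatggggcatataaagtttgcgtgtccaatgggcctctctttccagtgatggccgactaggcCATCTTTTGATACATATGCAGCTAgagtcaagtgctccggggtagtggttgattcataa

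chr8:3009671-3009858 (plus strand): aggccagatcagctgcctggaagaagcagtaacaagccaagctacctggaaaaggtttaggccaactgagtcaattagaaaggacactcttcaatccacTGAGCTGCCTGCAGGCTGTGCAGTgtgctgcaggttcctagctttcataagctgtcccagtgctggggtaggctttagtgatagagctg

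chr7:3010509-3010675 (plus strand): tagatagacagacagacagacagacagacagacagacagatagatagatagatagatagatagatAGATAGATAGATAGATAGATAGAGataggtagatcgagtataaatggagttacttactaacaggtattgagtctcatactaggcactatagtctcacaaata

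The HND on chromosome 4 began 105 bp after the first known base and was 177 bp wide, and its most frequent word had 35699 copies. The HND on chromosome 8 was 188 bp wide and its most frequent word had 78 copies. The HND on chromosome 7 was 167 bp wide and began in a run of short tandem units, and the word in capitals had 2384 copies. All 3 lay between genes, and the nearest gene models were *Vmn1r-ps2*, a vomeronasal receptor pseudogene, *Gm7346* and *Gm3104*. A read can be placed with certainty only where its sequence occurs once, so the share of 50-base words, the read length of the study, that occur once in mm9 was computed for the words starting in each HND. It was 41.8% for the HND on chromosome 4 and 0% for the others.

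An HND of the opposite kind came from chromosome 11, whose step from 3 to 4 Mb held more HNDs than any other step of a chromosome end. It lay in an intron of *Osbp2*, which encodes an oxysterol-binding protein, all of its 50-base words were unique, and its most frequent 24-base word had 67 copies.

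chr11:3754952-3755122 (plus strand): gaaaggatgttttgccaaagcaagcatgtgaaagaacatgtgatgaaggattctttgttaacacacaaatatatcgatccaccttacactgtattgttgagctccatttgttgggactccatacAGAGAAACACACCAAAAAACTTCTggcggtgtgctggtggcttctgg

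The most widespread 24-base words were found on 10 chromosomes, and 7 words reached this number. Of these, 2 occurred in 18 end HNDs each, and the more frequent, with 15517 copies over mm9, is in capitals in the next 4 windows, taken from HNDs on chromosomes 1 to 4, and the bases around it were similar but not identical.

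chr1:3076089-3076192 (plus strand): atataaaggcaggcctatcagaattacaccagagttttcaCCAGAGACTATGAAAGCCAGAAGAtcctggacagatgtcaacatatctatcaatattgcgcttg

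chr2:3467665-3467768 (plus strand): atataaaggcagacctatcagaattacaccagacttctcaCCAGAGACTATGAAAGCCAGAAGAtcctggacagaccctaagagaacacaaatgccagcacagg

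chr3:5928880-5928983 (plus strand): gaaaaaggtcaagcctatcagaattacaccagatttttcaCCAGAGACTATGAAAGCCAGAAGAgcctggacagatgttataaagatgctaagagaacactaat

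chr4:4225590-4225693 (minus strand): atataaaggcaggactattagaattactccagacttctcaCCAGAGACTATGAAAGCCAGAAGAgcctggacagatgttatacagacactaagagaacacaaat

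The density of HNDs at the centromeric ends differed from that of the interior by less than the spread between chromosomes. It was 4.86 ± 2.01 HNDs per sequenced Mb at the ends and 4.84 ± 0.856 in the interior (mean ± SD, n = 19 chromosomes). The difference of 0.0245 had a 95% interval from -0.822 to 0.877, and the density was higher at the end on 10 chromosomes and lower on 9 (two-sided exact sign-flip permutation test, p = 0.952, adjusted p = 1.0 over 20 tests). Per Mb of unique 50-base word starts the density was 9.82 at the ends and 5.38 in the interior, a difference of 4.44 (exact sign-flip permutation test, p = 0.249). Chromosome 14, at 85.05, carried the end value, which was 5.64 without it. In the last 5 Mb of the same chromosomes, at the telomeric end far from the centromere, it was 4.65 ± 1.52, a difference of 0.214 (exact sign-flip permutation test, p = 0.745).

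By 1 Mb step the density had no steady course away from the first known base. It was 5.14 ± 3.39 from 3 to 4 Mb, 3.79 ± 1.90 from 4 to 5 Mb, 5.92 ± 3.50 from 5 to 6 Mb, 3.95 ± 2.90 from 6 to 7 Mb and 5.52 ± 3.98 from 7 to 8 Mb (n = 19). These are 97, 72, 112, 74 and 103 HNDs, and every autosome had at least 1 HND in each step. The steps from 8 to 20 Mb belong to neither the members nor the interior and were not tested one by one. Their highest mean density was 6.56 (8 to 9 Mb). The lowest were 4.66 (13 to 14 Mb) and 5.06 (9 to 10 Mb), against 4.84 in the interior. The step from 4 to 5 Mb was lower than the interior on 14 of 19 chromosomes (exact sign-flip permutation test, p = 0.0399), which did not pass adjustment (adjusted p = 0.266). Per Mb of unique word starts the mean difference of this step was 1.76 (exact sign-flip permutation test, p = 0.975). Even so, the end was higher on only 7 of 19 chromosomes, and on chromosome 14 only 11.3% of the words of this step were unique. The first HND of a chromosome began between 105 and 525885 bp after the first known base, with a median of 117121 bp, and on 9 of 19 chromosomes within 100 kb.

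**Figure D1:**
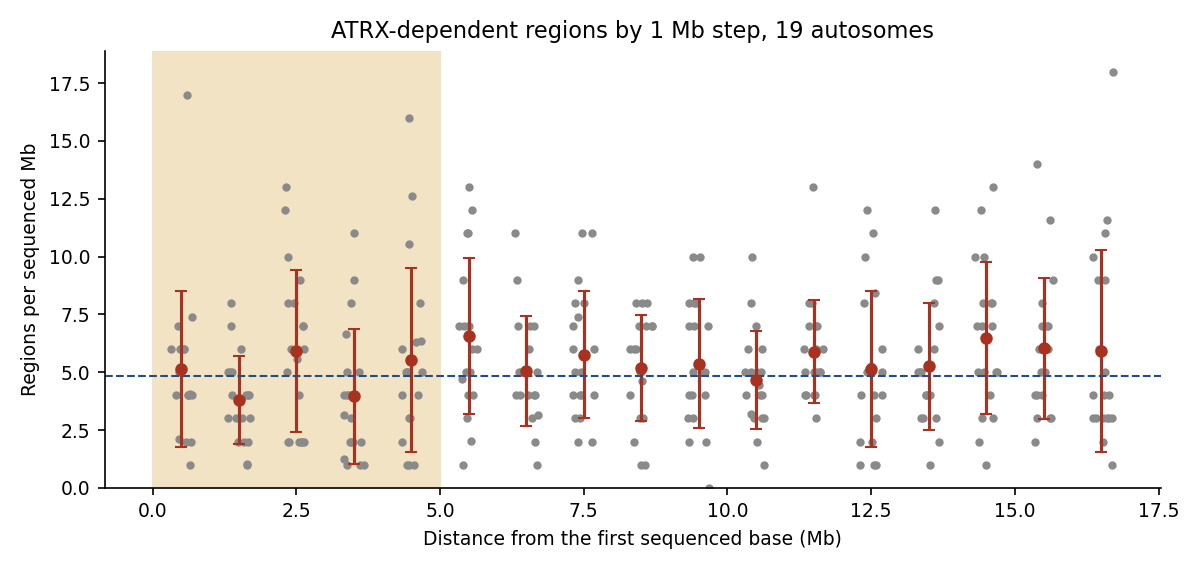
HNDs per sequenced Mb (y axis) by distance from the first sequenced base in Mb (x axis). Grey points are the 19 autosomes, red points and bars their mean and SD, the shaded area the 5 Mb of the members and the dashed line the mean of the interior at 4.84. The bars of all 5 steps of the shaded area cross the line.

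Chromosomes differed more from each other at the ends than in the interior. The density ranged from 2.08 to 10.6 HNDs per sequenced Mb at the ends and from 3.42 to 6.70 in the interior. Chromosome 11 held 53 end HNDs (10.6 per Mb), chromosome 3 held 37 (7.40 per Mb) and chromosome 14 held 31 (6.60 per Mb). Chromosome 19 held 10 (2.08 per Mb), chromosome 12 held 12 (2.40 per Mb) and chromosome 13 held 13 (2.60 per Mb). The interior of chromosome 11 was also dense, with 6.70 HNDs per Mb, while that of chromosome 3 had 4.46. Each end is a single count, so the wider range also includes the counting error of 10 to 53 HNDs.

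**Figure D2:**
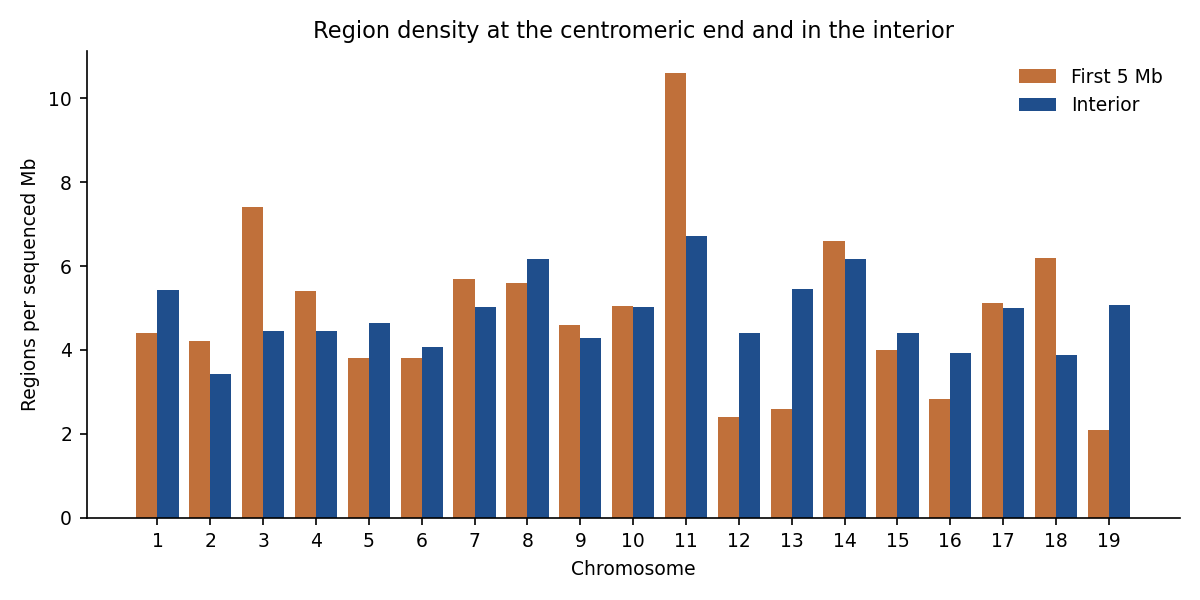
HNDs per sequenced Mb (y axis) for each autosome (x axis), in the first 5 Mb of known sequence (brown bars) and in the interior (blue bars). The end bars run from 2.08 on chromosome 19 to 10.6 on chromosome 11.

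The 17 HNDs from 3 to 4 Mb on chromosome 11 lay mostly in unique sequence. In 12 of them at least 90% of the 50-base words were unique, and in 8 all were. Of the words in all known sequence of this step, 94.0% were unique. They were 171 to 2873 bp wide, with a median of 583 bp. Of the 17, 8 lay in genes and 0 touched an exon. There were 4 in introns of *Osbp2*, among them the widest at chr11:3711943-3714815. Others lay in introns of *Sfi1*, whose product binds centrin at the centrosome, of *Drg1*, which encodes a GTP-binding protein, and of *Pik3ip1*, which encodes a protein that interacts with PI3-kinase. The nearest genes of the remaining HNDs were *Smtn*, *Sec14l4*, *Mtfp1* and the gene models *Gm11949*, *Gm11950* and *Gm11954*. Over the whole 5 Mb end of this chromosome, 11 of 53 HNDs lay in a gene (20.8%), against 42.7% of its interior HNDs. Genes covered 53.1% of the known sequence of this end and 53.4% of that of the interior.

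Widths at the ends and in the interior differed by less than the spread between chromosomes. The median width of a chromosome's HNDs was 435.5 ± 113 bp at the ends and 422.2 ± 44.2 bp in the interior (mean ± SD, n = 19), a difference of 13.3 bp with a 95% interval from -44.6 to 72.5 bp (exact sign-flip permutation test, p = 0.646, adjusted p = 0.993). Over single HNDs the members were 4 to 3948 bp wide, with quartiles of 232 and 746.75 bp and a median of 429.5 bp, against 420 bp in the interior. Of the 458, 91 were under 200 bp wide (19.9%, against 20.3% in the interior), 4 were under 20 bp (0.873% against 0.809%) and 14 were 2 kb or wider (3.06% against 2.83%).

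The widest end HND, chr10:7241219-7245166, spanned 3948 bp between genes, nearest to *9230019H11Rik*. The second, chr2:7428344-7431581, spanned 3238 bp, nearest to *Gm13390*. The third, chr6:4703798-4706973, spanned 3176 bp of *Peg10*, an imprinted gene derived from a retrotransposon, and overlapped its exons, with coding and untranslated parts. The *Peg10* HND held 93 CpG and 95.7% of its words were unique. At the limit of 8 Mb, the last HND inside was chr13:7990391-7990653 (263 bp) and the first outside was chr9:8051721-8052370 (650 bp).

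**Figure D3:**
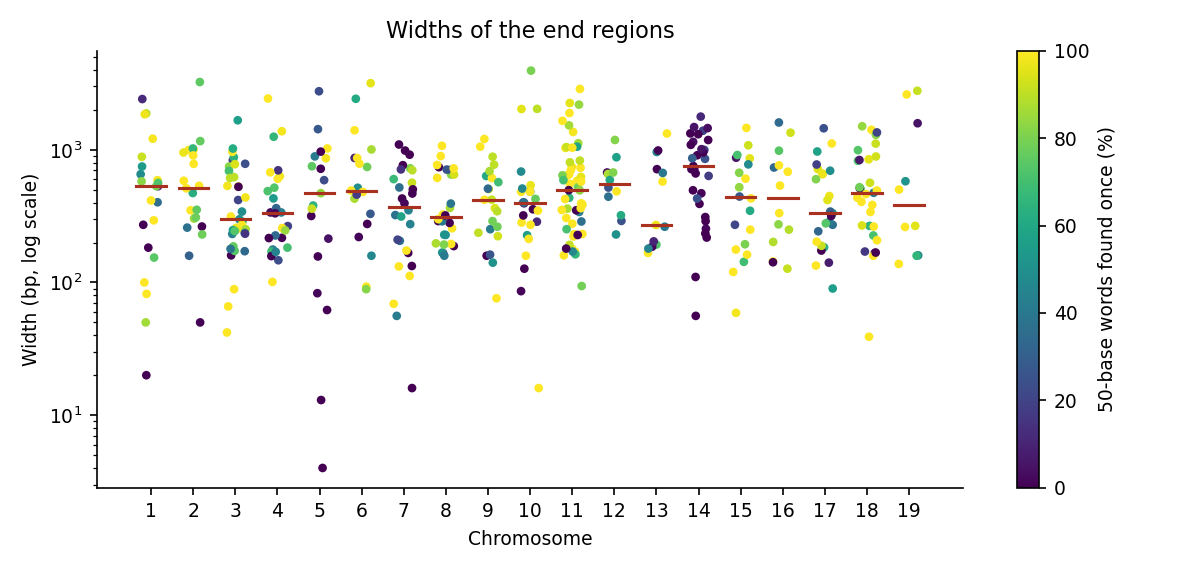
Width in bp on a log scale (y axis) of each end HND, by autosome (x axis). Red lines are the medians, and the colour of a point gives the percent of its 50-base words found once in mm9. The median of chromosome 14 is 754 bp, the highest of the 19, and its points are dark.

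The difference in base composition was also smaller than the spread between chromosomes. The mean G+C content of a chromosome's HNDs was 45.29 ± 1.53% at the ends and 45.31 ± 0.465% in the interior, a difference of -0.0240 percentage points with a 95% interval from -0.756 to 0.717 (n = 19, exact sign-flip permutation test, p = 0.947). All known sequence of the ends had 41.7 ± 2.45% G+C and that of the interior 41.7 ± 0.886%, so that the HNDs were richer in G+C than their surroundings in both. The ratio of observed to expected CpG was 0.218 ± 0.0485 at the ends and 0.218 ± 0.0138 in the interior (exact sign-flip permutation test, p = 0.959). Against the last 5 Mb of the chromosomes, the G+C content of the members differed by -1.29 percentage points, 45.3% against 46.6%, and was lower on 15 of 19 chromosomes (exact sign-flip permutation test, p = 0.0545, adjusted p = 0.272). All known sequence of these zones had 41.68% G+C at the centromeric end and 43.83% at the telomeric end.

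The telomeric repeat unit TTAGGG, searched on both strands, occurred in 97 of the 458 members. Per chromosome its share was 20.8 ± 7.01% of the HNDs at the ends and 19.7 ± 2.98% in the interior (n = 19, exact sign-flip permutation test, p = 0.457). A G-quadruplex pattern, 4 runs of at least 3 G with loops of 1 to 7 bases on either strand, occurred in 30 members, with shares of 6.69 ± 7.03% and 6.50 ± 1.08% (exact sign-flip permutation test, p = 0.913). Chromosome 14 held 8 of the 30, which is 25.8% of its end HNDs, against 5.35% of its interior HNDs. Over single members the share was 6.55%, and 5.15% without chromosome 14, against 6.61% in the interior.

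On average the members lay in less unique sequence than the HNDs of the interior, but by less than the spread between chromosome ends. No difference passed adjustment. Per chromosome, 64.2 ± 20.0% of the 50-base words of the end HNDs were unique, against 73.6 ± 6.00% in the interior, a difference of -9.49 percentage points with a 95% interval from -18.7 to -0.934 (n = 19, lower on 13 chromosomes, exact sign-flip permutation test, p = 0.025, adjusted p = 0.25). The share of HNDs holding a 24-base word with at least 100 copies was 78.5 ± 7.41% against 72.4 ± 5.15%, higher on 15 of 19 chromosomes (p = 0.0092 in the exact sign-flip permutation test, adjusted p = 0.184). All known sequence was also less unique at the ends, with 81.1 ± 18.8% of 50-base words found once against 89.9 ± 2.00% in the interior, and without chromosome 14 with 85.2 ± 6.34% against 90.04 ± 1.99%. In an alternative added after the values were seen, the share of the surrounding zone was subtracted, and a difference of -0.681 percentage points was left (exact sign-flip permutation test, p = 0.785).

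Counted over single HNDs, 171 of 458 members (37.3%) had at least 90% unique words, against 49.1% in the interior, and 40.05% did without chromosome 14. A further 66 members (14.4%) had no unique 50-base word, against 9.28% in the interior. Chromosome 14 held 18 of the 66, and the share without it was 11.2%. Of the 66, 46 had none within 150 bp on either side either. The methods state that only uniquely mappable reads were kept. For the H3K9me3 libraries the reporting summary also lists a class of reads with sampled alignments (option -M). Whether such reads entered the peak calling is not stated there. How reads came to be counted in these 46 was not tested. The median width was 314 bp in members without a unique word and 493 bp where at least 90% of the words were unique. In the interior these medians were 237 and 475 bp. The members without a unique word include the 18 of chromosome 14, whose end HNDs had a median width of 754 bp. A median without them was not computed.

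**Figure D4:**
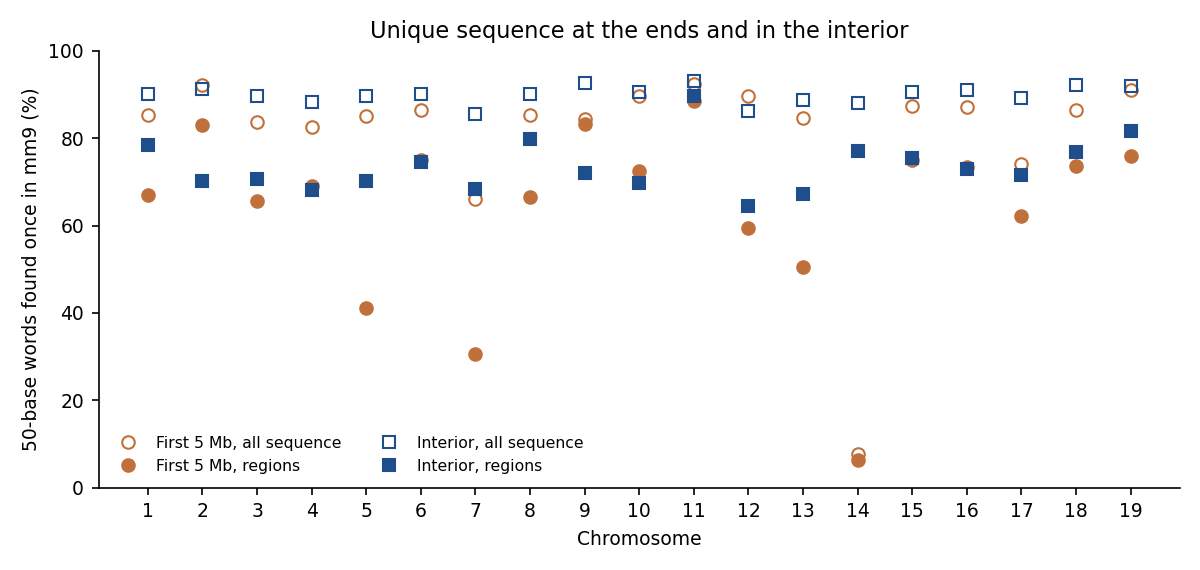
Percent of 50-base words found once in mm9 (y axis) by autosome (x axis), for the HNDs (filled symbols) and for all known sequence (open symbols) of the first 5 Mb (brown circles) and of the interior (blue squares). Chromosome 14 stands apart with 6.40% in its end HNDs and 7.76% in all sequence of its end.

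Chromosome 14 set the low end of this range. Only 7.76% of the 50-base words of its end were unique, against 87.9% in its interior, while on the other 18 chromosomes the share at the end was 66.1% to 92.4%. Along the chromosome the share was 3.60%, 11.3%, 3.01%, 7.85% and 12.6% in the 5 steps from 3 to 8 Mb, 48.4% from 8 to 9 Mb and 89.2% from 9 to 10 Mb. Its 31 end HNDs had 6.40% unique words and 18 of them had none. Their median width of 754 bp was the highest of the 19 chromosomes. Of the 31, 21 lay in genes (67.7%), and genes covered 70.9% of the known sequence of this end. All 21 overlapped only gene models with Gm symbols, such as *Gm3383*, *Gm3358* and *Gm3629*. Without chromosome 14, the difference in unique words between ends and interior was -6.10 percentage points (exact sign-flip permutation test, p = 0.05).

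Many members shared 24-base words with other members. Members that share at least 50 of their 24-base words were joined into families, a limit chosen after the values were seen. Families held 170 of the 458 members, and 27 of the 31 on chromosome 14. Interior HNDs were not joined in this way, so whether such sharing is particular to the ends was not tested. A family of 14 held 12 HNDs of chromosome 14, together with the HND nearest to the first known base on chromosome 4 and the last HND inside the limit on chromosome 13. A link to 1 member was enough to join, and the HND on chromosome 4 had only 1, of 52 words. A word of 35 copies in mm9 was present in all 12 of chromosome 14 and in neither other HND of this family. It is in capitals in the next 4 windows, shown because they let the copies be compared, and chosen after the values were seen.

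chr14:3158519-3158622 (plus strand): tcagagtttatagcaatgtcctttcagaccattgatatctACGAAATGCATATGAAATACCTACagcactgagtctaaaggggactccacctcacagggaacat

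chr14:3477414-3477517 (plus strand): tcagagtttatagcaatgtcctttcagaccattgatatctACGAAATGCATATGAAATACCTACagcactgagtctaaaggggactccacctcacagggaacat

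chr14:4087103-4087206 (plus strand): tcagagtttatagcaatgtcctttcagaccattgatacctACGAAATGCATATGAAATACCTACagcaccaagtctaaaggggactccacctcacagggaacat

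chr14:4791014-4791117 (plus strand): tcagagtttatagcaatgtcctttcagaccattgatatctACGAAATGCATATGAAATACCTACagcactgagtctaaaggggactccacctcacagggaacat

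The first and second windows were the same in all 104 bases, and the first and the third differed in 3. The largest family held 58 members on 16 chromosomes, with a median width of 398 bp and 38.7% G+C. Over its members, the median of the median word copies in mm9 was 4396. The next family held 16 members on 11 chromosomes, with 49.1% G+C and a median of 650.75 copies.

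The share of members in genes and with close neighbours differed from the interior by less than the spread between chromosomes. The share of HNDs in a gene was 28.6 ± 17.4% at the ends and 30.9 ± 4.68% in the interior (n = 19, exact sign-flip permutation test, p = 0.563). Of the 458, 131 lay in a gene, 122 in a protein-coding gene (26.6%, against 27.7% in the interior) and 16 over an exon (3.49% against 4.78%). HNDs with another HND within 10 kb made up 17.5 ± 13.5% at the ends and 19.3 ± 3.92% in the interior (exact sign-flip permutation test, p = 0.581). In an end zone of 2 Mb it was 11.47% against 19.01% over the 18 chromosomes with at least 5 such HNDs, a difference of -7.54 percentage points (exact sign-flip permutation test, unadjusted p = 0.037).

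There were 9 members within 10 kb of an olfactory or vomeronasal receptor gene (1.97%, against 1.63% in the interior), all on chromosome 7. There were 3 within 10 kb of a zinc finger gene whose symbol begins Zfp, Zscan or Zkscan (0.655% against 1.03%). Zinc finger genes with other symbols were not counted. Per chromosome, neither share differed beyond the spread (exact sign-flip permutation test, n = 19, p = 1.0 and p = 0.237). For the receptor genes, the end was higher on 1 chromosome and lower on 14. On chromosome 7 itself the share was 32.1% at the end and 6.82% in the interior. A test of the mean over chromosomes does not address an excess on a single one. The 9 lay near *Vmn1r57*, *Vmn1r60*, *Vmn2r29*, *Vmn2r30*, *Vmn2r35* and pseudogenes of that family, which encode or derive from pheromone receptors of the vomeronasal organ. In 5 of the 9 no 50-base word was unique, and the highest share was 57.96%. Other members named after their values were seen lay over *Neat1*, the long RNA of paraspeckles, at chr19:5837666-5840276 (2611 bp, 100% unique words), and in an intron of *Cdk6*, which encodes a kinase of the cell cycle, at chr5:3435816-3438575 (2760 bp, 23.3% unique words).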

How the data were processed

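Single-end reads of 50 bp were aligned by the authors to mm9 (Bowtie2). By the methods, they kept uniquely mappable reads, called broad peaks with MACS2 against the common input and retained peaks present in WT and absent in KO. How far peaks had to overlap to count as present in KO, and how replicates were joined, is not given in the sources used here. The deposited file is 1 list of positions in bp in 3 columns, with 0 columns of values per library, so the depth behind an HND is unknown.

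From this list, density per Mb of known sequence, width, G+C, CpG, motifs, genes (GENCODE M1) and copies of 50- and 24-base words in mm9 were computed. Words of tandem units up to 6 bases were left out of the copy counts. Words starting in an HND count for it. End and interior were compared per autosome by a two-sided exact sign-flip permutation test over 19 differences, with Benjamini-Hochberg adjustment over 20 tests, and a 95% interval from the shifts that the test did not reject. The test takes chromosomes as independent. Scripts were tested on simulated data.

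HNDs named by rule were those nearest to the known sequence, the widest, those at the limit, those of the fullest step and those with the most widespread word; the 3 chromosomes with the most and the fewest per Mb were named likewise. The members and lists were chosen with earlier results of these data known. Alternatives were other zones, joined or wider HNDs, other word lengths, distances and denominators, and each chromosome left out. Chromosomes X and Y were left out of the comparison. Python 3.11.15, numpy 2.4.6, pandas 2.3.3, scipy 1.17.1, numba 0.67.0 and matplotlib 3.10.9 were used. The sequence of 1 further HND is not reported here.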

Additional observations from a re-analysis of the deposited data

Results flagged for a closer look

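Chromosome X, which the comparison does not use, also had HNDs at its centromeric end, a signal outside the main measurement. There were 14 in its first 5 Mb of known sequence, 2.98 per sequenced Mb, against 6.91 per Mb in its interior. Of the 14, 6 had no unique 50-base word, and 59.8% of the words of this end were unique. As a single chromosome it gives no test.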

How the results depend on the processing

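No paired analysis was possible because all libraries were pooled into a single list, and leaving out a replicate gives no value for the same reason. Over 182 alternatives, 149 kept direction and side of the threshold, 26 reversed, 6 kept direction and lost an unadjusted p under 0.05, and 1 gained it. The cause of these changes was not tested.

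Of the differences (end minus interior), density became -0.373 per Mb in an end zone of 2 Mb, -0.00607 percentage points as percent of bases covered and -0.0193 as a log2 ratio with 1 HND added. Per Mb of unique words, the steps from 4 to 5 Mb and 6 to 7 Mb became 1.76 and 3.45. The first of these also lost its unadjusted call (exact sign-flip permutation test, p = 0.975). In both steps the end was higher on only 7 of 19 chromosomes. On chromosome 14, 11.3% and 7.85% of the words of these steps were unique. Width became -2.63 bp in an end zone of 10 Mb. G+C became 0.0140 without HNDs under 200 bp, 0.171 at 2 Mb and 0.0160 minus the G+C of the zone. Gene overlap became 0.607 at 2 Mb, 0.678 at 10 Mb and 1.39 minus the genic share of the zone, an alternative chosen after seeing the data. All these reversals had an exact sign-flip permutation p of at least 0.316.

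Unique words lost the unadjusted call at 10 Mb (-5.03) and minus the share in the zone (-0.681, chosen after seeing the data), and so did high-copy words at 1000 copies (1.38). Neighbours gained it at 2 Mb (-7.54). With each chromosome left out in turn (leave-one-out), unique words ranged from -10.7 to -6.10 and lost the call without chromosome 5, 7 or 14 (exact sign-flip permutation test, p = 0.05 each). High-copy words ranged from 5.20 to 7.01, density from -0.191 to 0.191, width from -3.53 to 23.5, G+C from -0.230 to 0.140, gene overlap from -4.62 to -0.933 and neighbours from -3.13 to -0.570.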
